A study of Homo sapiens with 6 samples.

Results

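The 38 genes described here encode molecular chaperones and their close partners: heat shock factors, HSP90 and its co-chaperones, HSP70 and HSP110 proteins, BAG factors, HSP40 (J-domain) proteins, small heat shock proteins, and the chaperonins of the cytosol and the mitochondrion. They were taken by name from the 62696 genes of the count files, and all 38 were found. The group is not purely cytosolic: HSPA9, TRAP1, HSPD1 and HSPE1 encode proteins of the mitochondrion, HSPA13 a protein of the microsomal compartment, and HSPB11, listed in the annotation as IFT25, a component of intraflagellar transport. The question was how the messenger RNA of each class differed between DMS53 cells with and without enforced expression of ONECUT2 (OC2), a homeobox transcription factor.

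Chaperones bind proteins that are not yet, or no longer, folded and release them in cycles driven by ATP. HSP40 proteins deliver clients to HSP70, BAG and HSP110 proteins exchange its nucleotide, the adaptor STIP1 passes clients on to HSP90, and small heat shock proteins hold unfolded proteins without using ATP. The cytosolic chaperonin, a double ring of different CCT subunits, folds actin and tubulin, while HSPD1 and its lid HSPE1 fold proteins imported into mitochondria. Under proteotoxic stress, the factor HSF1 binds heat shock elements, inverted repeats of nGAAn, and raises the transcription of many of these genes.

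DMS53 is an established line of small cell lung cancer (SCLC) with neuroendocrine (NE) features, grown in RPMI-1640 with FBS. Control cells carried an empty lentiviral vector and OC2-OE cells a vector for OC2. The study's methods describe the constitutively expressed OC2 as tagged with mGFP, a tag also in the name of the empty vector. The part of the tag was not tested. Viral particles for both vectors were made in packaging cells (HEK-293 in the labels, HEK-293T in the study's methods). The transduced cells of both groups were kept under puromycin selection, so the controls share the vector and the drug, but not the tagged OC2. Each group had 3 poly(A) RNA-Seq libraries, which the study describes as independent experiments. The edgeR p-values below rest on the spread between these libraries, with the variability of each gene estimated partly from the other tested genes. They can therefore be far smaller than 3 libraries against 3 would allow for a gene taken alone. Both groups come from a single cell line, and expression from the vector was constitutive.

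The libraries held between 16533284 and 19099337 counted read pairs. ONECUT2 itself, which checks the labels, had 394 to 465 counts in the control libraries and 68853 to 74031 in the OC2-OE libraries, with introduced and endogenous transcripts in 1 count. Libraries of 1 group differed by 1.32 to 2.07 times the sampling variance, and libraries of different groups by 94.1 to 104 times, so no library duplicated another. All 6 markers of SCLC and NE identity were detected in both groups, with a summed level of 2050 to 2060 CPM (counts scaled to a common library size after TMM normalization) in control and 1990 to 2010 in OC2-OE. UCHL1 made up most of this sum, and single markers differed in both directions: over the 3 libraries of a group, UCHL1 had 55684 counts in control and 78237 in OC2-OE and CHGA 3729 and 8224, while INSM1 had 16986 and 4732, NCAM1 8503 and 2253, DLL3 4229 and 2786 and SYP 17289 and 13466. Of 5 markers of blood cells, CD3E and HBB were at 0 in all libraries and the summed level was 0.299 to 0.589 CPM in control and 1.9 to 2.69 in OC2-OE, nearly all from LYZ. Summed markers of fibroblasts were at 20.9 to 23.7 and 27.4 to 30.9 CPM, mainly COL1A1, and 4 endothelial markers at 12.7 to 15 and 4.17 to 4.73 CPM. The difference in the endothelial sum came mainly from KDR (548 counts in control and 85 in OC2-OE). CDH5 was also lower (52 and 3), while PECAM1, the largest of the 4 in OC2-OE, had 125 and 134 and VWF 1 and 17. Their part in the results was not tested.

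Most of the chaperone genes were lower in OC2-OE. Of the 38 genes, 37 passed the filter on low counts, and only CRYAB did not. By edgeR's quasi-likelihood test, with an adjusted p under 0.001 over all 17307 tested genes, 26 of the 37 were lower, where 28.7% of all tested genes were lower. A further 6 were higher (HSPA1A, HSPA1B, HSPA2, HSPA9, DNAJB4 and HSPB8), against 27.8% of all tested genes, and 5 were not called (HSF1, TRAP1, CDC37, HSPA8 and BAG2). In either direction, 56.5% of all tested genes passed this threshold. The control and OC2-OE libraries did not overlap for 35 of the 37 genes, 29 lower and 6 higher, where 73.2% of all tested genes did not overlap.

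The changes were moderate in size. Over the 37 genes the log2 fold change had a median of -0.34 and a range from -1.14 (HSPB1) to 1.31 (DNAJB4), beside a median of 0.01 over all tested genes. The median absolute change was 0.37, close to 0.38 over all tested genes. Only 2 genes, DNAJB4 and HSPB1, changed by at least 2-fold with an adjusted p under 0.001, as did 17.3% of all tested genes. Together the 38 genes took 1.65% ± 0.017 (SD, n = 3) of all counts in control and 1.41% ± 0.013 (SD, n = 3) in OC2-OE. In bulk RNA, fewer cells that express a gene and less of its RNA per cell cannot be told apart.

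**Figure D1:**
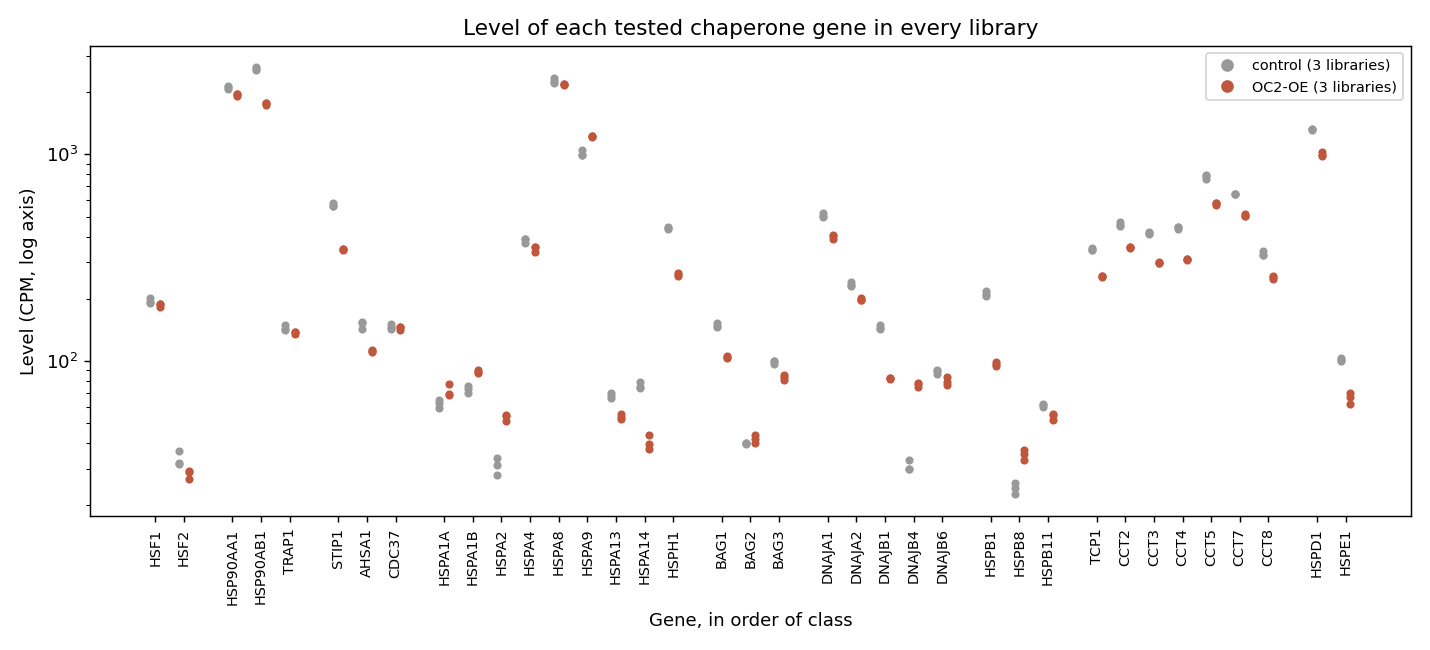
Level of each of the 37 tested chaperone genes in every library, in CPM on a log axis, with genes in order of class on the horizontal axis. Grey points are the 3 control libraries and red points the 3 OC2-OE libraries. The libraries of a group lie close together, and the red points are below the grey ones for most genes, while DNAJB4, HSPA2 and HSPB8 are above.

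**Figure D2:**
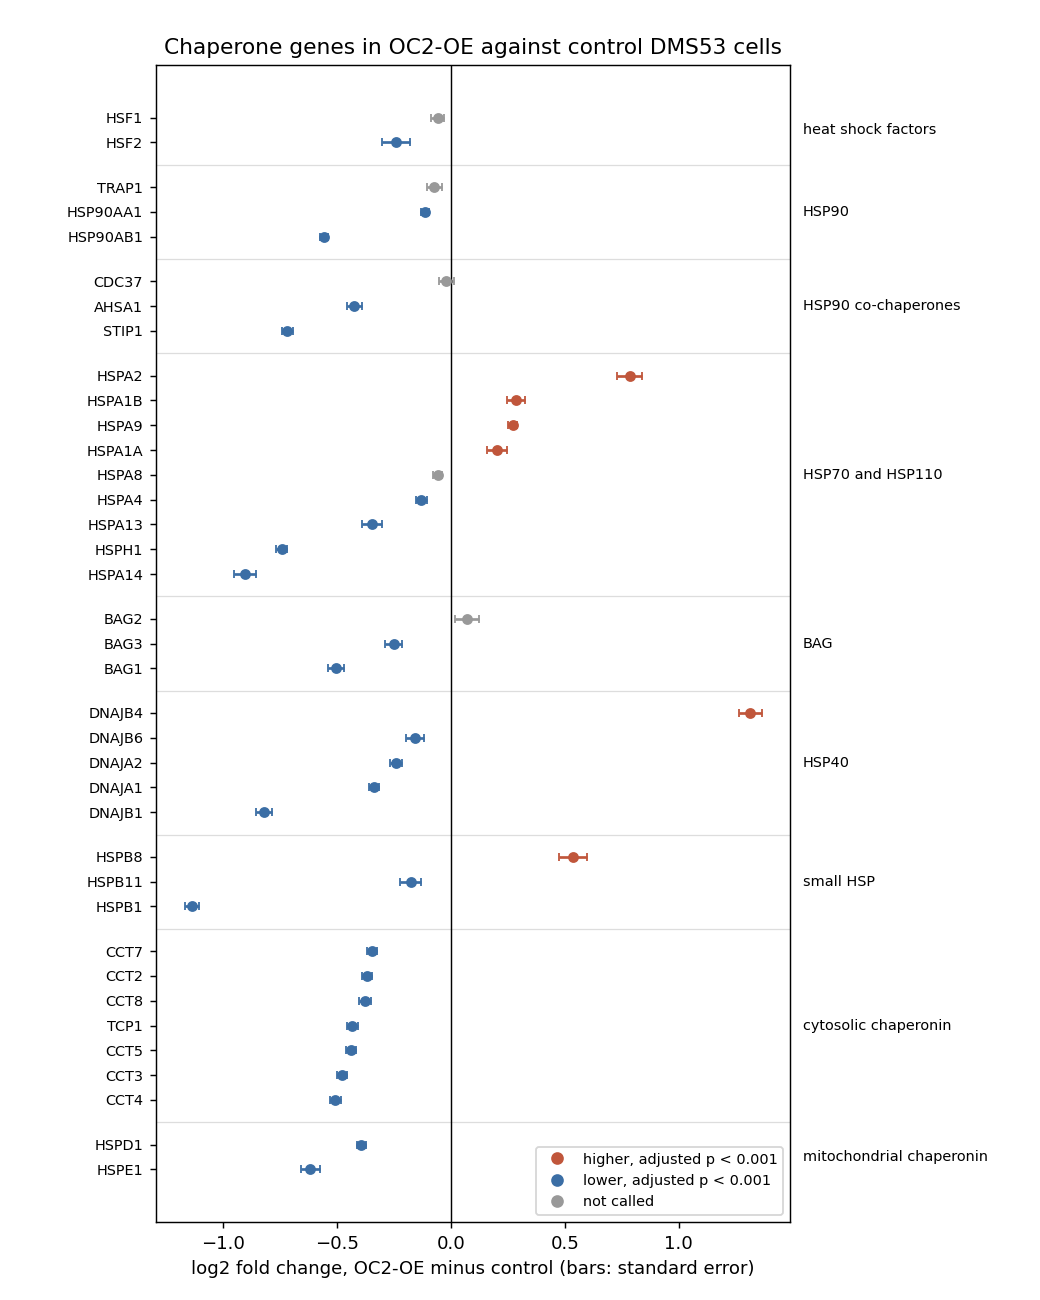
Log2 fold change of each tested chaperone gene, OC2-OE minus control, with its standard error, sorted within classes. Red marks the 6 genes higher, blue the 26 lower and grey the 5 not called at an adjusted p under 0.001. All 7 cytosolic chaperonin genes and both mitochondrial chaperonin genes are blue, while the HSP70 class is divided.

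The sequence around the start site was searched for exact letters of heat shock elements, which HSF1 binds. Elements with other letters, or farther from the start, were not counted, so a gene without a match may still carry one. RefSeq promoter windows (assembly GRCh38.p14, 250 bases before to 50 bases after a start) were matched by symbol to 35 of the 38 genes, with 48 windows in all. HSF1, HSPA14 and CRYAB were not matched. A heat shock element of 2 units, GAANNTTC or TTCNNGAA on either strand, was found in a window of 18 of the 35 genes (51.4%), beside 16.2% of all 27305 genes in the table. A search of only the 250 bases before the start was added after the counts had been seen, and there the numbers were 15 of 35 (42.9%) and 14%. The longer form with 3 units, GAANNTTCNNGAA or TTCNNGAANNTTC, contains the shorter words and was likewise added later. It stood in those 250 bases in 5 of 35 genes (14.3%), namely HSP90AA1, HSP90AB1, HSPA8, DNAJB6 and HSPD1, beside 0.557% of all genes.

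Stretches of 30 bases around an element are shown for genes of both directions, from the strand of the gene, with capitals for the letters of elements. HSPA1A, HSPA1B, HSPB8 and DNAJB4 were higher in OC2-OE, HSPA8 was not called, and the others were lower. The closing capitals of the HSP90AA1 stretch belong to a further element that runs past its end. They lie at chr6:31815426-31815455 (+) for HSPA1A, chr6:31827622-31827651 (+) for HSPA1B, chr12:119178832-119178861 (+) for HSPB8, chr1:78004830-78004859 (+) for DNAJB4, chr11:123062170-123062199 (-) for HSPA8, chr6:44247823-44247852 (+) for HSP90AB1, chr14:102087111-102087140 (-) for HSP90AA1, chr2:197500061-197500090 (-) for HSPD1, chr19:14518426-14518455 (-) for DNAJB1 and chr7:76302480-76302509 (+) for HSPB1.
HSPA1A: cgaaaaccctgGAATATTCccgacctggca
HSPA1B: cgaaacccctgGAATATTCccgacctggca
HSPB8: tcatcacctccGAATATTCctgtgacagga
DNAJB4: agcatttgctgTTCTAGAAagtacagagac
HSPA8: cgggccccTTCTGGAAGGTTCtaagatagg
HSP90AB1: tgagattgTTCTGGAAGCTTCtggattctg
HSP90AA1: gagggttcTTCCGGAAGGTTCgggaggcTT
HSPD1: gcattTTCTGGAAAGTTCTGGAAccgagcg
DNAJB1: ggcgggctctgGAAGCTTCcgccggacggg
HSPB1: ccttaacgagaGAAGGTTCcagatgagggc

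Elements stood before genes of both directions. In the 250 bases before the start, 4 of 6 higher genes, 9 of 25 lower genes and 2 of 4 genes not called held the element of 2 units. The core letters of HSPA1A, HSPA1B and HSPB8, all higher, match each other, but HSPA1A and HSPA1B are near-identical copies. Those of DNAJB4, also higher, differ, and the higher genes HSPA2 and HSPA9 had no element of 2 units in these 250 bases. The longest run of elements was in HSPD1, which was lower. The ONECUT letters ATCGAT or ATTGAT, on either strand, were found in 2 of 35 genes (5.71%), CCT3 and CCT8, in the whole windows as in the 250 bases, beside 8.47% and 7.55% of all genes. These matches describe letters and not bound sites.

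The heat shock factors, the transcription factors of this system, differed little. HSF1, the main activator of the heat shock response, was measured at 201, 189.5 and 194 CPM in control and at 189, 183 and 188 CPM in OC2-OE. The groups did not overlap, but the difference was small and not called, at -0.06 on the log2 scale (95% confidence interval -0.115 to -0.001, edgeR adjusted p = 0.0625). It shrank to -0.04 without control replicate 1, to -0.02 with upper-quartile normalization and to -0.01 with library size only (adjusted p = 0.823). HSF2, a relative that forms complexes with HSF1, was at 31.5, 36.5 and 32.0 CPM in control and at 26.6, 28.9 and 29.1 CPM in OC2-OE. All OC2-OE libraries were below all control libraries. It fell by 0.24 on the log2 scale (standard error 0.06, adjusted p = 2.64e-04, edgeR), a call that was lost without control replicate 2 (adjusted p = 0.0189) and without OC2-OE replicate 1 (adjusted p = 0.0109), with library size only (0.00409), with upper-quartile normalization (0.0027) and in DESeq2 (0.00507).

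Both cytosolic HSP90 genes fell, the constitutive form by 32.1% and the inducible form by 7.64%. HSP90AB1, the constitutive form (ENSG00000096384.20, GRCh38 chromosome 6 from 44246166 to 44253888), was at 2642, 2599 and 2555 CPM in control and at 1782, 1777 and 1737 CPM in OC2-OE. The group means were 2599 ± 43.5 and 1765 ± 24.6 CPM (SD, n = 3), which on the log2 scale is -0.56 (standard error 0.02, edgeR adjusted p = 1.05e-56). HSP90AA1, the stress-inducible form, was at 2137, 2112 and 2078 CPM in control and at 1969, 1953 and 1922 CPM in OC2-OE. Both genes had groups far apart relative to the spread. The difference of HSP90AA1 was -0.12 on the log2 scale (standard error 0.02, adjusted p = 9.35e-09, edgeR), and shrank to -0.06 with library size only and to -0.07 with upper-quartile normalization, where the call was kept. TRAP1, the mitochondrial HSP90, was not called, with 144 ± 3.84 CPM in control and 137 ± 1.41 in OC2-OE (SD, n = 3, adjusted p = 0.0323, edgeR) and no overlap between groups, and its log2 fold change of -0.07 shrank to -0.02 with library size only.

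The balance of the cytosolic pair was examined next. On levels per length (CPM per kilobase of exon), HSP90AA1 made up 32.1%, 32.2% and 32.2% of the pair in control and 39.3%, 39.1% and 39.3% in OC2-OE. The means were 32.2% ± 0.0645 and 39.2% ± 0.0924 (SD, n = 3), a difference of 7.04 percentage points. The groups did not overlap. An exact two-sided permutation test gave p = 0.1, which is the smallest p that 3 libraries against 3 allow, and 0.1 after Benjamini-Hochberg adjustment over the 3 balances examined here.

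Of the HSP90 co-chaperones, STIP1 and AHSA1 fell and CDC37 was not called. STIP1 (HOP), the adaptor between HSP70 and HSP90, was at 564, 583 and 565 CPM in control and at 342, 349 and 349 CPM in OC2-OE. No libraries overlapped, and its level fell by 39.2% (log2 fold change -0.72, standard error 0.02, adjusted p = 1.41e-57, edgeR). AHSA1, which stimulates the ATPase of HSP90, was at 142, 153 and 153 CPM in control and at 113, 111 and 109.8 CPM in OC2-OE. It fell by 25.5% (log2 fold change -0.42, standard error 0.03, adjusted p = 4.82e-23, edgeR). CDC37, which brings protein kinases to HSP90, was at 146 ± 4.09 and 144 ± 2.95 CPM (SD, n = 3), with overlapping groups, a log2 fold change of -0.02 (95% confidence interval -0.08 to 0.04) and an adjusted p = 0.581 (edgeR). The sign of this small difference turned with library size only (0.03) and with upper-quartile normalization (0.02).

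The HSP70 and HSP110 class was divided: of 9 genes, 4 were higher, 4 lower and 1 not called. The largest fall was that of HSPA14, an HSP70 relative found at the ribosome, which was at 78.6, 73.8 and 74.3 CPM in control and at 43.9, 39.6 and 37.5 CPM in OC2-OE. The groups lay far apart, and the level fell by 46.6% (log2 fold change -0.90, standard error 0.05, adjusted p = 9.52e-36, edgeR). Of its exon bases, 12.7% are shared with MSANTD7 on the same strand, and pairs that fit both genes were not counted. HSPH1 (HSP105), an HSP110 protein that exchanges the nucleotide of HSP70 and holds unfolded clients, was at 438, 447 and 435 CPM in control and at 267, 263 and 259 CPM in OC2-OE. It fell by 40.2% with no overlap (log2 fold change -0.74, standard error 0.02, adjusted p = 2.30e-56, edgeR).

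HSPA2, an HSP70 best known from the testis, showed the largest rise of the class. It was at 27.9, 33.7 and 31.4 CPM in control and at 51.2, 54.0 and 54.4 CPM in OC2-OE. Every OC2-OE library was above every control library, and the rise was 1.72-fold (log2 fold change 0.78, standard error 0.05, adjusted p = 3.14e-26, edgeR). HSPA9 (mortalin), the HSP70 of the mitochondrion, rose 1.21-fold from 1013 ± 30.5 to 1223 ± 8.65 CPM (SD, n = 3, adjusted p = 2.04e-25, edgeR). HSPA13, of the microsomal compartment, fell by 21.3% and HSPA4, another HSP110 protein, by 8.59%, with log2 fold changes of -0.35 and -0.13 (adjusted p = 1.03e-11 and 1.10e-06, edgeR). The call of HSPA4 was lost with library size only (adjusted p = 0.00219) and without OC2-OE replicate 3 (adjusted p = 0.00116).

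The inducible HSP70 genes HSPA1A and HSPA1B and the constitutive HSPA8 fall outside the rule for values in every library and are given because their balance was examined. HSPA1A was at 62.7, 64.9 and 58.8 CPM in control and at 77.2, 67.9 and 69.3 CPM in OC2-OE. HSPA1B was at 69.7, 73.0 and 75.4 CPM in control and at 90.2, 87.1 and 88.1 CPM in OC2-OE. Both were higher without overlap, 1.15-fold and 1.22-fold, with log2 fold changes of 0.20 (standard error 0.04, adjusted p = 3.01e-05) and 0.29 (standard error 0.04, adjusted p = 2.20e-10, edgeR). The call of HSPA1A was lost without OC2-OE replicate 1 (adjusted p = 0.00617) and without control replicate 3 (adjusted p = 0.00182), and in DESeq2 (0.00136). The 2 genes are near-identical copies, and pairs that aligned to both were not counted, so their levels are too low and uncertain. HSPA1B also shares 36.6% of its exon bases with another annotated gene (ENSG00000285565). HSPA6, an HSP70 gene outside the 38, is named here after its value had been seen. It was lower, with sums of only 115 counts in control and 65 in OC2-OE (log2 fold change -0.905, adjusted p = 9.49e-04, edgeR).

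HSPA8, the constitutive HSP70 of the cytosol, was at 2332, 2278 and 2212 CPM in control and at 2193, 2186 and 2168 CPM in OC2-OE. The groups did not overlap, but the log2 fold change of -0.06 (95% confidence interval -0.10 to -0.02, adjusted p = 0.00219, edgeR) missed the threshold. It passed it in limma voom (adjusted p = 2.36e-05) and without control replicate 3 (adjusted p = 2.50e-05), and shrank to -0.01 with library size only (adjusted p = 0.66) and to -0.02 with upper-quartile normalization (adjusted p = 0.394). On levels per length, HSPA1A and HSPA1B together made up 10.1%, 10.7% and 10.7% of the 3 genes in control and 13.1%, 12.2% and 12.5% in OC2-OE. The difference of 2.14 percentage points had no overlap between groups (exact two-sided permutation p = 0.1, the smallest possible, and 0.1 adjusted over the 3 balances). Without division by length the difference was 1.23 percentage points. The whole HSP70 and HSP110 class took 0.434% ± 0.0084 of all counts in control and 0.439% ± 0.0042 in OC2-OE (SD, n = 3), the 1 class whose share overlapped between groups.

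BAG proteins regulate HSP70, and 2 of the 3 genes fell. BAG1, which links HSP70 to the proteasome, was at 146, 152 and 147 CPM in control and at 104, 104 and 106 CPM in OC2-OE. It fell by 29.5% (log2 fold change -0.51, standard error 0.03, adjusted p = 1.48e-28, edgeR). BAG3, which works with HSPB8 in selective autophagy, was at 96.7, 99.9 and 99.7 CPM in control and at 80.8, 83.1 and 85.0 CPM in OC2-OE. The groups of both genes were apart, and BAG3 fell by 16% (log2 fold change -0.25, standard error 0.04, adjusted p = 2.44e-09, edgeR). BAG2, an inhibitor of the ubiquitin ligase that acts with HSP70, was at 39.8 ± 0.36 and 41.8 ± 1.71 CPM (SD, n = 3) with overlapping groups (log2 fold change 0.07, 95% confidence interval -0.04 to 0.17, adjusted p = 0.229, edgeR).

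The HSP40 genes, whose products deliver clients to HSP70 and start its ATP cycle, held the largest rise and a large fall. DNAJB4 (ENSG00000162616.9, chromosome 1 from 77979175 to 78017964) was at 29.8, 33.0 and 29.8 CPM in control and at 78.1, 77.2 and 74.7 CPM in OC2-OE. It rose 2.49-fold, the means being 30.9 ± 1.85 and 76.6 ± 1.74 CPM (SD, n = 3), or by 1.31 on the log2 scale (standard error 0.05, adjusted p = 6.06e-50, edgeR). DNAJB1, the stress-inducible HSP40 of the same subfamily (ENSG00000132002.9, chromosome 19 from 14514769 to 14560391), was at 142, 145 and 149 CPM in control and at 82.1, 82.0 and 82.3 CPM in OC2-OE. It moved in the opposite direction to DNAJB4 and fell by 43.4% (log2 fold change -0.82, standard error 0.03, adjusted p = 7.01e-45, edgeR).

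The other HSP40 genes were all lower. DNAJA1, the most abundant of them in CPM per kilobase in both groups, was at 518, 503 and 498 CPM in control and at 409, 401 and 391 CPM in OC2-OE. Its groups were apart, and it fell by 20.9% (log2 fold change -0.34, standard error 0.02, adjusted p = 8.79e-28, edgeR). DNAJA2 fell by 15.4% (adjusted p = 4.69e-14, edgeR) and DNAJB6, which keeps polyglutamine proteins from aggregating, by 10.5% (adjusted p = 1.56e-04, edgeR). The call of DNAJB6 was lost in 6 alternatives, which were the removal of control replicate 2 (adjusted p = 0.00193), OC2-OE replicate 1 (0.00200) or OC2-OE replicate 3 (0.00989), library size only (0.00946), upper-quartile normalization (0.00543) and DESeq2 (0.00224).

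The small heat shock proteins also moved in both directions. HSPB1 (HSP27, ENSG00000106211.10, chromosome 7 from 76302673 to 76304295) was at 207, 211 and 218 CPM in control and at 94.6, 96.8 and 98.2 CPM in OC2-OE. Its mean fell by 54.5%, from 212 ± 5.83 to 96.5 ± 1.83 CPM (SD, n = 3), the largest fall of the 37 genes (log2 fold change -1.14, standard error 0.03, adjusted p = 3.95e-63, edgeR). HSPB8 was at 25.7, 24.3 and 22.6 CPM in control and at 36.8, 32.9 and 35.5 CPM in OC2-OE. It rose 1.45-fold without overlap (log2 fold change 0.54, standard error 0.06, adjusted p = 1.53e-13, edgeR), while the partner BAG3 fell.

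HSPB11 was at 61.0, 61.6 and 59.8 CPM in control and at 55.0, 51.7 and 54.5 CPM in OC2-OE. It fell by 0.18 on the log2 scale (standard error 0.05, adjusted p = 3.11e-04, edgeR), and lost the call in 6 alternatives, without control replicate 2 (adjusted p = 0.00249), OC2-OE replicate 2 (0.00832) or OC2-OE replicate 3 (0.00140), with library size only (0.00979), with upper-quartile normalization (0.00607) and in DESeq2 (0.00335). CRYAB (alpha-B crystallin), abundant in lens and muscle, was close to absent. It had 7, 13 and 6 counts in control and 1, 0 and 0 in OC2-OE, and was not tested because of the filter. The sums of 26 and 1 counts, scaled by depth, gave a level 28-fold lower in OC2-OE, with a 95% interval from 4.5-fold to 1100-fold that covers counting error only.

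The cytosolic chaperonin genes moved together. All 7 listed subunits fell, with log2 fold changes between -0.51 and -0.35 and a median of -0.43. CCT4 was at 446, 442 and 435 CPM in control and at 313, 311 and 308 CPM in OC2-OE, and fell by 29.7% (log2 fold change -0.51, standard error 0.02, adjusted p = 1.90e-41, edgeR). CCT3 was at 421, 418 and 411 CPM in control and at 298, 303 and 296 CPM in OC2-OE, a fall of 28.3% (log2 fold change -0.48, standard error 0.02, adjusted p = 1.03e-38, edgeR). CCT5 was at 782, 795 and 761 CPM in control and at 578, 578 and 568 CPM in OC2-OE, a fall of 26.2% (log2 fold change -0.44, standard error 0.02, adjusted p = 4.82e-40, edgeR). The groups did not overlap for any of the 7 genes. TCP1 (the CCT1 subunit), CCT8, CCT2 and CCT7 fell by 26%, 23%, 22.6% and 21.4%, with adjusted p from 5.37e-28 to 2.03e-33 (edgeR).

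The subunits assemble in equal numbers in the ring, but their transcripts were not at equal levels. On levels per length, CCT7 was highest with 179.5 CPM per kilobase in control and 141 in OC2-OE, and TCP1 lowest with 70.9 and 52.5. The coefficient of variation across the 7 subunits was 30.2% to 31.4% in the control libraries and 31% to 32.3% in the OC2-OE libraries. Their summed level was 856 to 876 CPM per kilobase in control and 642 to 651 in OC2-OE. Relative to the mean of the subunits in the same library, CCT4 went from 1.32 ± 0.0017 to 1.24 ± 0.0027 and CCT7 from 1.45 ± 0.021 to 1.53 ± 0.016 (SD, n = 3). These relative levels did not overlap between groups for CCT4 and CCT3, which were lower, or for CCT2, CCT7 and CCT8, which were higher, and overlapped for TCP1 and CCT5. These shifts were not tested. CCT6A, the subunit absent from the 38 genes, is named here after its values had been seen. It fell from 520 ± 3.75 to 374 ± 5.15 CPM (SD, n = 3, log2 fold change -0.48, adjusted p = 1.59e-40, edgeR).

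**Figure D3:**
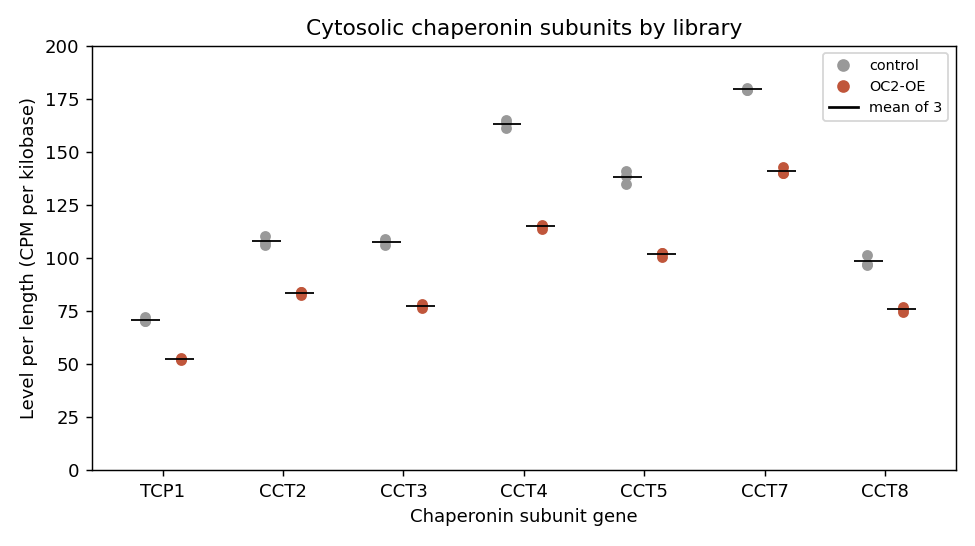
Level per length of the 7 cytosolic chaperonin subunit genes, in CPM per kilobase on an axis from 0. Points are libraries (grey control, red OC2-OE) and black lines the mean of 3. Every red point lies below the grey points of its gene, and the order of the means, from CCT7 at 179.5 down to TCP1 at 70.9 in control, is kept in OC2-OE. In control the means of CCT2 and CCT3 were close, at 108.1 and 107.8, and their order differed between libraries.

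Both genes of the mitochondrial chaperonin fell. HSPD1 (HSP60), which forms the folding chamber, was at 1330, 1321 and 1306 CPM in control and at 1027, 997 and 987 CPM in OC2-OE. It fell by 23.9% (log2 fold change -0.39, standard error 0.02, adjusted p = 3.98e-39, edgeR). HSPE1 (HSP10), its lid, is transcribed from a neighbouring start in the opposite direction on chromosome 2 and was at 100.1, 100.7 and 103 CPM in control and at 69.6, 66.6 and 61.7 CPM in OC2-OE. The groups of both genes were apart, and HSPE1 fell by 34.8% (log2 fold change -0.62, standard error 0.04, adjusted p = 5.24e-29, edgeR). HSPE1 shares 10.5% of its exon bases with the readthrough gene HSPE1-MOB4.

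The ratio of HSPD1 to HSPE1, on levels per length, was 3.17, 3.13 and 3.03 in control and 3.53, 3.58 and 3.82 in OC2-OE. All OC2-OE libraries were above all control libraries, with a difference of 0.529 (exact two-sided permutation p = 0.1, the smallest possible, and 0.1 adjusted over the 3 balances). The size of this difference depends on the lengths used, and without division by length it was 2.21. Of the other mitochondrial members, HSPA9 rose, and TRAP1 was lower by a small difference that was not called.

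**Figure D4:**
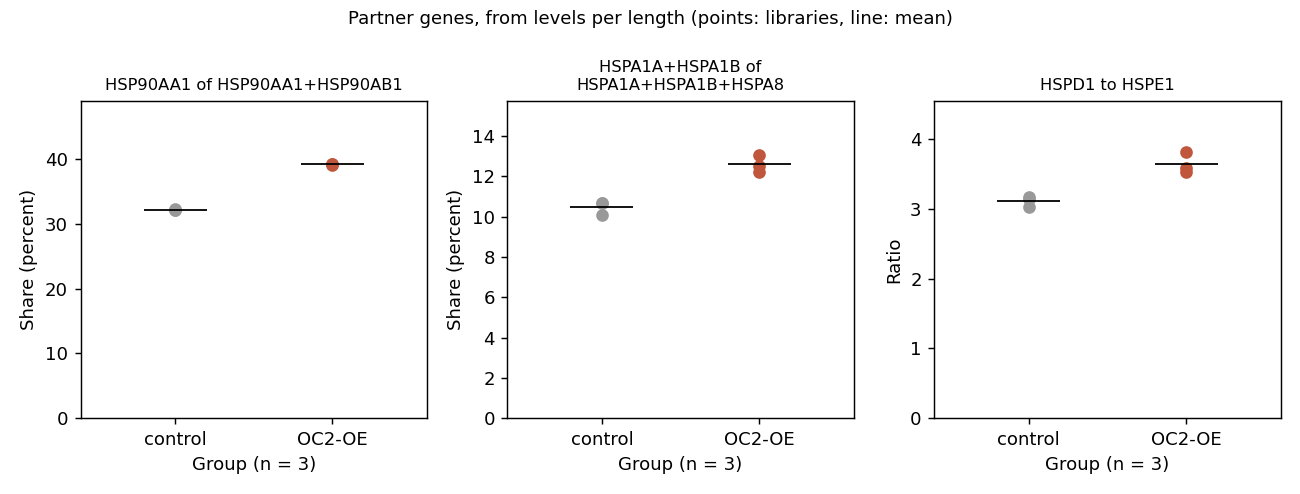
Balance of partner genes from levels per length: the share of HSP90AA1 in the HSP90 pair (percent), the share of HSPA1A and HSPA1B among these and HSPA8 (percent), and the ratio of HSPD1 to HSPE1. Points are the 3 libraries of a group and lines their mean, on axes from 0. The OC2-OE libraries lie above the control libraries in each panel, by 7.04 points, 2.14 points and 0.529.

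Across the 38 genes, levels can be compared per length only. In control, HSP90AB1 was highest with 872 ± 14.6 CPM per kilobase, followed by HSPA8 with 469 ± 12.5 and HSP90AA1 with 414 ± 5.8 (SD, n = 3). This order was kept in OC2-OE, where they were at 592 ± 8.27, 450 ± 2.65 and 382 ± 4.72. DNAJA1, CCT7 and HSPD1 followed in control at 190 ± 3.88, 179.5 ± 0.42 and 173 ± 1.6. HSPA2, DNAJB6 and BAG2 were the lowest of the tested genes in control, at 5.63 ± 0.53, 5.93 ± 0.13 and 5.98 ± 0.0545, and these did not differ beyond their spread. The length is that of all exons of a gene joined, which understates the level of genes with long rare exons, such as DNAJB6.

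Other genes of protein folding were counted from lists drawn from general knowledge, but with earlier results of these data known. The same holds for the lists in the paragraphs that follow. Up to 2 genes are named from each list (3 where the second place was tied), those with the largest absolute change among the called ones. Of all tested genes, 27.8% were higher, 28.7% lower and 56.5% called in either direction, and the counts below stand beside these shares. Of 19 other HSP70, HSP110 and J-domain genes, 6 were higher and 9 lower (median log2 fold change -0.07). By this rule HSPA12B was named (log2 fold change 2.15), with sums of only 11 counts in control and 53 in OC2-OE. HSPA12B passed the filter on low counts only through OC2-OE. Its place among the 6 higher genes and its rank in this list are therefore no evidence of a rise. DNAJB5 fell (-1.43, adjusted p = 6.03e-14, edgeR). Of 20 other genes listed as co-chaperones of HSP90 and HSP70, 3 were higher and 7 lower (median -0.02). CACYBP fell (-0.79), and AHSA2P, whose symbol marks a pseudogene, rose (0.68). The list of 14 remaining chaperonin subunit, prefoldin and cofactor genes had 13 tested, 8 lower and 1 higher (median -0.24), of which PFDN5, a prefoldin subunit that hands actin and tubulin to the chaperonin, rose (0.51, adjusted p = 2.52e-05) and CCT6A and PDRG1, tied for the second place at -0.48, fell. Only 1 of 6 other small heat shock genes was tested and it was not called. Of 10 mitochondrial chaperones and proteases, 6 were lower and 3 higher (median -0.16), with CLPP, a protease of the matrix, at -0.56 and DNAJC19 at 0.36.

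Most chaperones of the endoplasmic reticulum were higher in OC2-OE. Of 16 such genes, 12 were higher and 4 not called by edgeR's test (median log2 fold change 0.34), where 27.8% of all tested genes were higher. PDIA3, a disulphide isomerase, rose from 626 ± 11 to 1107 ± 7.8 CPM (SD, n = 3, log2 fold change 0.82) and CRELD2 by 0.63. HSPA5 (BiP) and HSP90B1 (GRP94), relatives of HSP70 and HSP90 in that compartment, fall outside the rule and were chosen after their values had been seen. HSPA5 rose from 879 ± 9.05 to 1236 ± 11.9 CPM (SD, n = 3, log2 fold change 0.49, adjusted p = 6.55e-48, edgeR). HSP90B1 rose from 1853 ± 37.1 to 2629 ± 64.9 CPM (SD, n = 3, log2 fold change 0.50, adjusted p = 1.87e-50, edgeR), while its cytosolic relative HSP90AB1 fell.

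Genes that regulate or need chaperones were also counted, beside 27.8% of all tested genes higher and 28.7% lower. Of 4 other heat shock factors and regulators, 3 were tested. HSF4 rose (log2 fold change 1.39, from 6.72 ± 0.62 to 17.7 ± 1.64 CPM, SD, n = 3, adjusted p = 4.34e-26, edgeR), and HSBP1, which binds HSF1 and restrains it, fell (-0.67, adjusted p = 1.59e-46). Of 10 actin and tubulin genes, whose products the cytosolic chaperonin folds, 8 were lower and 1 higher (median -0.60). TUBA1B and TUBB4B fell by 1.05 and 0.98 on the log2 scale, and the 1 that rose was TUBA1A (0.85), named after its value had been seen. All 10 proliferation genes were lower, with a median of -1.91 and the largest changes in TOP2A (-2.29) and MKI67 (-2.28). Their part in the fall of the chaperone genes was not tested.

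**Figure D5:**
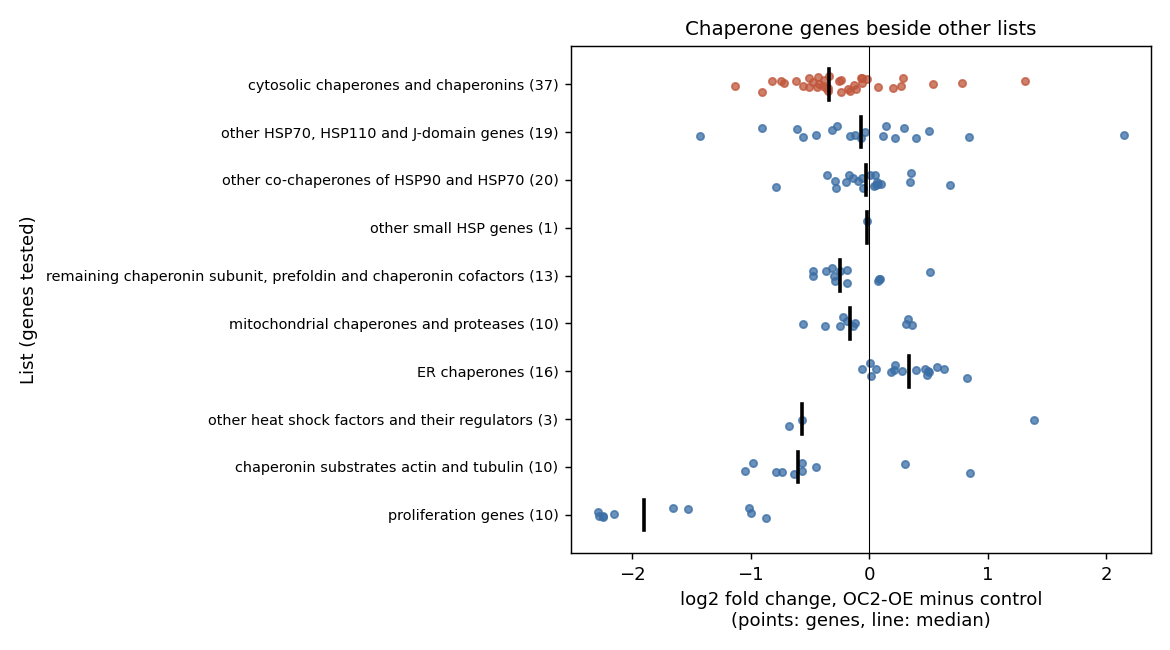
Log2 fold changes, OC2-OE minus control, of the 37 tested chaperone genes (red) and of the tested genes of 9 other lists (blue), with the number tested in brackets. Points are genes and black lines medians. The median of the chaperone genes is at -0.34, that of the endoplasmic reticulum chaperones at 0.34 and that of the proliferation genes at -1.91.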

How the data were processed

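RNA-Seq libraries from 3 control and 3 OC2-OE cultures of DMS53 were compared. Per the labels and file headers, stranded libraries of poly(A) RNA were made and the authors aligned reads with STAR 2.7.9a to GRCh38, checked them with FastQC 0.11.8 and deposited raw counts of read pairs on the exons of GENCODE release 42 genes (featureCounts 1.6.0, with strand, without pairs that align to several places or fit several genes). No normalization or filter was applied to the deposited counts. The submitters' notes also name edgeR and limma.

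Here, counts were normalized by TMM and tested in R 4.3.3 with edgeR 4.0.16 (filterByExpr, quasi-likelihood test with robust dispersion, no replicate term), with Benjamini-Hochberg adjustment over 17307 genes and the study's threshold of 0.001. Standard errors of log2 fold changes were derived from the F statistic. The steps were tested on simulated data. Symbols were matched for 62672 of 62696 identifiers, with HSPB11 found through its RefSeq synonym. CPM per kilobase used the deposited exon length. The members and lists were chosen with earlier results of these data known. Values in every library are given for both heat shock factors and for the up to 3 genes of a class with the largest absolute change under the threshold, and from each other list up to 2 genes (3 with a tie) are named, those called with the largest absolute change. Alternatives were DESeq2 1.42.0 size factors and its Wald test, limma 3.58.1 voom, library size only, upper-quartile normalization, other filters and thresholds, ONECUT2 left out, a replicate block, and each library left out. RefSeq promoter windows were read as given, on GRCh38.p14.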

Additional observations from a re-analysis of the deposited data

How the results depend on the processing

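With each library left out in turn, 5 to 6 of the chaperone genes were higher and 23 to 27 lower, and 8944 to 9340 of all genes were called. Under the other settings at the same threshold these numbers were 5 to 6, 22 to 27 and 8385 to 9777, the lowest number of all genes with DESeq2. Asking also for a 2-fold change left 1 higher, 1 lower and 2999 of all genes. Direction and call were kept by 30 of the 37 genes under every setting run at the same threshold. HSF2, HSPA1A, HSPA4, DNAJB6 and HSPB11 lost the call in some settings, HSPA8 gained it in 2, and CDC37, never called, turned to 0.031 with library size only, 0.023 with upper-quartile normalization and ranged from -0.041 to 0.004 with a library left out. Library size only moved the median of all genes by 0.05 on the log2 scale. Without division by length, the differences in balance were 7.66 and 1.23 percentage points and 2.21 in the ratio. With a library left out they ranged from 7 to 7.09, from 1.91 to 2.32 and from 0.439 to 0.587. Without the filter on low counts the median of the small heat shock genes was -0.65, since CRYAB entered. Depth limits the statement on CRYAB.

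The replicate numbers are not stated to pair cultures. Deviations of libraries with the same number correlated at -0.001, 0.018 and 0.013, and not every library correlated best with its own number. With the replicate number as a block, 6 of the chaperone genes were higher and 26 lower, and 9642 of all genes were called. The block changed the call of none of the 37 genes.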
